A study of Mus musculus with 24 samples.

Results

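The enzymes that write, maintain and remove methyl groups on cytosine were followed in mouse leg muscle in which c-Myc, Klf4, Sox2 and Oct-3/4 (together OSKM), the factors that reprogram somatic cells to pluripotency, were switched on in the myofibers. The 9 genes followed, of 24537 in the count table, were chosen by name, with no measured value in the rule: the methyltransferases Dnmt1, Dnmt3a and Dnmt3b, the catalytically inactive cofactor Dnmt3l, the hemimethylated-DNA reader Uhrf1, the dioxygenases Tet1, Tet2 and Tet3, and the glycosylase Tdg. Earlier results of these data were known when the genes and the related lists were chosen, so the choice was not blind to the data. RNA was sequenced from whole extensor digitorum longus (EDL), a fast muscle, and whole soleus (SOL), a slow muscle, of mice aged 2 months. Acta1-Cre+/4Fhet mice (Cre+) were compared with Acta1-Cre-/4Fhet mice (Cre-) after doxycycline (Dox) at 1 mg/ml in the drinking water for 2.5 days, for 5.5 days or for 8.5 days. Mice of both genotypes ate regular chow, received Dox and carried one copy of the cassettes, namely a Dox-dependent OSKM transgene at Col1a1 and the rtTA activator, with GFP, behind a LoxP-flanked stop at ROSA26. Only Cre, driven by the Acta1 promoter that is active in skeletal myofibers, removes that stop, so the transgene is restricted to fibres while the RNA came from the whole muscle, with its vessels, connective tissue, nerve and resident mononuclear cells. Each of the 12 combinations of muscle, genotype and day held 2 libraries (24 in all), described by the study as biologically independent.

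Dnmt3a and Dnmt3b place methyl groups on unmethylated CG sites, and Dnmt3l assists them in germ cells. Dnmt1, recruited by Uhrf1 to newly replicated DNA, copies the pattern to the daughter strand. Tet1, Tet2 and Tet3 oxidise the methyl group, and Tdg excises the further oxidised bases so that base excision repair can restore an unmodified cytosine; in resting tissue this active route can change a site without cell division, and conversion of somatic cells to pluripotent cells is known to require erasure of methylation at pluripotency genes.

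Library totals ran from 36088781 to 54679082 counts. Pou5f1, the gene of Oct-3/4, was measured at 1.02 to 76.2 FPKM (counts scaled to exon length and library total) in the 6 EDL Cre+ libraries against 0 to 0.0896 FPKM in the 6 EDL Cre- libraries, and at 0.0786 to 12.2 against 0 to 0.0362 FPKM in SOL. Klf4 did not follow in SOL, at 6.43 to 22.7 FPKM in Cre+ against 11.1 to 22.6 in Cre- libraries, and 2 of the 4 factor genes were called in SOL at 2.5 and at 8.5 days against all 4 in EDL. Sox2 and Myc were nevertheless higher in both Cre+ than in both Cre- SOL libraries of each of these days. At 2.5 days Sox2 was at 2.00 and 4.64 against 0.0315 and 0.0594 FPKM, and Myc at 8.17 and 14.0 against 2.45 and 1.95 FPKM. The study describes Oct4, Sox2 and c-Myc as induced in SOL. The counts do not separate transgene from endogenous transcripts. The Pou5f1 groups did not overlap in either muscle, but EDL Cre+ replicate 1 at 5.5 days, with 1.02 FPKM, and both SOL Cre+ libraries at 5.5 days, with 0.0786 and 0.387 FPKM, were far lower than the rest. The study set aside samples without OSKM as outliers and its text does not treat day 5.5, so days 2.5 and 8.5 (16 libraries) were fitted together, and day 5.5 was read from a fit of all 24. The muscles matched their labels: summed fast fibre markers reached 67300 to 111900 FPKM in EDL against 26480 to 46400 in SOL, and summed slow fibre markers 161.3 to 1524 against 30640 to 49700.

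All 9 genes had a promoter window (250 bases before to 50 after a transcript start) in the RefSeq table of GRCm38.p6, the build of the mm10 coordinates of the counts. The windows of Tet1, Tet2 and Dnmt3b are shown because these were the genes that passed the test in EDL. They are written 5′ to 3′ on the gene's strand, with every CG dinucleotide in capitals. The Tet1 window is chr10:62887275-62887574 (minus strand), the Tet2 window chr3:133544341-133544640 (minus strand) and the Dnmt3b window chr2:153649199-153649498 (plus strand).
Tet1: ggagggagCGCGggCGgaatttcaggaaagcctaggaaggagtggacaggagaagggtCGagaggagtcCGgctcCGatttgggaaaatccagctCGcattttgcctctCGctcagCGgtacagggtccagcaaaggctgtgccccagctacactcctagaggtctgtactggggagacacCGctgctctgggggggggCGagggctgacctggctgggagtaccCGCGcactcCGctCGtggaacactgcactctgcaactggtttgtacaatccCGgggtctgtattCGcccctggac
Tet2: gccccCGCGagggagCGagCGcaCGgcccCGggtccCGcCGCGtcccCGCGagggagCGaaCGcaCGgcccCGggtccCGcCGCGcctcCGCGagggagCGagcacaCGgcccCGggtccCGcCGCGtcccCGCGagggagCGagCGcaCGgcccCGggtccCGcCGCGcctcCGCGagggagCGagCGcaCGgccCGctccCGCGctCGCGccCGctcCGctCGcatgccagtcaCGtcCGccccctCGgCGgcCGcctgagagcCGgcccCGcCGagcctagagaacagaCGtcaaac
Dnmt3b: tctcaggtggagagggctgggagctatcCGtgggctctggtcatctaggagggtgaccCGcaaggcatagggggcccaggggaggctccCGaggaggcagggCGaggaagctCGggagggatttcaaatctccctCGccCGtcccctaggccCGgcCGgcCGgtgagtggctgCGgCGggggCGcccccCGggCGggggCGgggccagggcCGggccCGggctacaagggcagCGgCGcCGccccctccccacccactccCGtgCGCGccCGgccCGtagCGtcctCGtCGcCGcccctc

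The CG content of these windows differed widely. Tet2 held 57 CG dinucleotides, and 99.85% of 32851 mouse promoter windows held fewer. Dnmt3b held 30 (88.32% held fewer) and Tet1 held 17 (68.59% held fewer), against a median of 7 over all windows. In the windows at the counted starts of other genes, Dnmt3a held 46, Tdg 26, Dnmt1 12, Uhrf1 12 and Dnmt3l 4. Windows at other annotated starts of the same gene could differ. A Dnmt1 window 356 bases away and a Uhrf1 window 976 bases away each held 33. The Tet1 window lay 7310 bases from the start of the counted Tet1 transcript, and it belongs to a different annotated start. The only Tet3 window likewise lay 14714 bases from the start of the counted Tet3 transcript. In total, 5 short motifs were searched on both strands: the E-box CACGTG, the octamer ATGCAAAT, the Sox core CATTGT, the CACCC box CCACCC and the GC box GGGCGG. The GC box, present in 35.66% of all windows, occurred in all of the 3 printed windows, from base 12 in Tet1, from base 240 in Tet2 and at 4 places in Dnmt3b. A CACCC box, present in 31.48% of all windows, began at base 250 of Dnmt3b. The E-box (7.15% of all windows) was in none of the printed windows. It began at base 223 of the Tdg window and base 207 of a Dnmt3l window, both at counted starts. It also began at base 171 of a Dnmt3a window 84764 bases from the counted start, while the nearer Dnmt3a windows held no E-box. The letters of the octamer (1.735% of all windows) and of the Sox core (12.57%) were in none of the 16 windows of the 9 genes.

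The transcribed regions of the 9 genes lie on 7 chromosomes of mm10. The methyltransferase group comprises Dnmt1 at chr9:20907206-20952979, Uhrf1 at chr17:56303337-56323486, Dnmt3a at chr12:3806980-3914443, Dnmt3b at chr2:153649449-153687730 and Dnmt3l at chr10:78049842-78063622. The demethylation group comprises Tet1 at chr10:62804570-62880014, Tet2 at chr3:133463677-133544390, Tet3 at chr6:83362374-83456392 and Tdg at chr10:82629838-82650494. Tdg shares its span and strand with the transcript Gm9855, whose count was 0.9942 to 1.003 times that of Tdg in the 24 libraries, so both names carry the same reads. Dnmt3a and Tet3 enclose genes on the opposite strand, and their reads cannot be told apart if strand was not used in counting, which is not given in the sources used here.

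In control muscle Dnmt3a, a de novo methyltransferase, had the highest level per length of the 9 genes. In the 6 Cre- EDL libraries its mean was 11.8 FPKM ± 3.88 (SD, n = 6), followed by Tet3 at 4.07 ± 0.796, Tet2 at 3.39 ± 1.61, Tdg at 3.11 ± 0.461 and the maintenance enzyme Dnmt1 at 2.57 ± 0.536 FPKM. Dnmt3b, the second de novo enzyme, was at 0.456 ± 0.0579 FPKM, Tet1 at 0.334 ± 0.185 and Uhrf1 at 0.233 ± 0.112. Only 3 steps separated the 6 libraries of one gene from those of the next. These were from Dnmt3a to Tet3, from Dnmt1 to Dnmt3b and from Uhrf1 to Dnmt3l. Where ranges overlapped, genes were compared within each library. Tdg lay above Dnmt1 in 6 of 6, and Tet3 above Tet2, Dnmt3b above Tet1 and Tet1 above Uhrf1 in 5 each. Tet2 lay above Tdg in only 2 of 6, so the order of these genes was not resolved. In the 6 Cre- SOL libraries the order was Dnmt3a at 15.8 ± 4.51 FPKM, Tet2 at 5.56 ± 1.31, Tet3 at 4.33 ± 0.568, Tdg at 3.41 ± 0.516, Dnmt1 at 3.31 ± 0.662, Uhrf1 at 0.600 ± 0.153, Dnmt3b at 0.475 ± 0.0626 and Tet1 at 0.397 ± 0.132 FPKM. The same 3 steps, after Dnmt3a, after Dnmt1 and before Dnmt3l, were free of overlap. Within single SOL libraries Tet2 lay above Tet3, and Tet3 above Tdg, in 6 of 6. Tdg lay above Dnmt1 in 4, Uhrf1 above Dnmt3b in 5 and Dnmt3b above Tet1 in 4. Dnmt3l was near the limit of detection, with 0 to 4 counts a library and no count in 5 of 24 libraries. A count of 0 allows up to 3 counts, or 0.033 to 0.0501 FPKM depending on the library, and this limit covers counting error only. Dnmt3l did not pass the filter on low counts and was not tested.

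**Figure D1:**
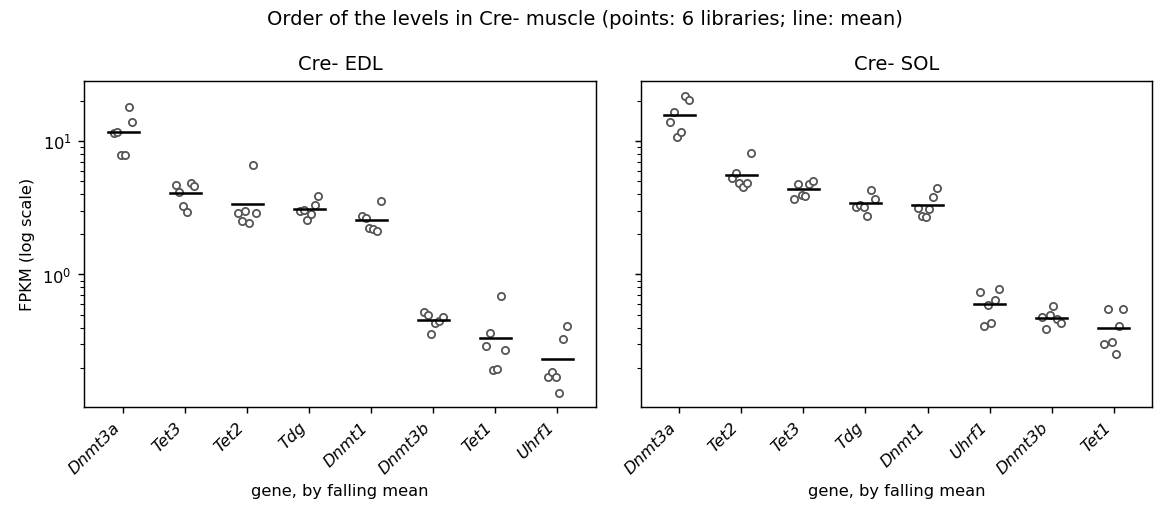
Level per exon length (FPKM, log axis) of the 8 tested genes in the Cre- libraries of each muscle, ordered by mean, with points for the 6 single libraries and a line for their mean. Dnmt3a lies above the rest, a middle group holds Tet2, Tet3, Tdg and Dnmt1, and a low group holds Dnmt3b, Tet1 and Uhrf1.

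The comparison of Cre+ with Cre- muscle asks how these genes differed at each time with the OSKM transgene active in fibres, to the extent that each muscle carried it. In EDL at 2.5 days, Tet1 and Tet2 rose, Dnmt3b fell, and the other 5 tested genes did not pass the test. A gene was called at a Benjamini-Hochberg adjusted p under 0.05 by edgeR's quasi-likelihood test with a log2 fold change beyond 0.5 in either direction. By this rule 24% of 15372 tested genes were called (13.8% higher and 10.2% lower), against 3 of 8 members. With all libraries 3684 genes were called, and 2002 without Cre+ replicate 2. The groups did not overlap, on the scaled values used below, with Cre+ higher in 30.9% of all genes and 3 members, and with Cre+ lower in 34.2% and 2 members, so that absence of overlap between pairs of libraries was common. In bulk muscle, fewer cells of a type and less RNA per cell cannot be told apart. An exact permutation test of 2 against 2 libraries cannot go below a two-sided p of 0.333, so the adjusted p-values rest on the spread pooled over genes and groups. Single-library values below are FPKM rescaled by the TMM library factors (scaled FPKM), the scale of the fold changes, given for replicate 1 and then replicate 2.

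Tet1, the dioxygenase known for its high level in pluripotent cells, was at 0.308 and 0.398 scaled FPKM in the Cre- EDL libraries of 2.5 days and at 1.03 and 0.816 in the Cre+ libraries. Both Cre+ libraries lay above both Cre- libraries. The log2 fold change was 1.38 (SE 0.354, edgeR adjusted p = 0.0115), or 2.61-fold with a 95% confidence interval of 1.53 to 4.44. Tet2, a dioxygenase without a CXXC domain of its own, was at 3.03 and 2.73 scaled FPKM in the Cre- libraries and at 5.95 and 7.46 in the Cre+ libraries, and these groups did not overlap either. Its log2 fold change was 1.21 (SE 0.289, edgeR adjusted p = 0.00785), or 2.31-fold (95% confidence interval 1.5 to 3.57). Leaving out Cre+ replicate 1 took the Tet1 call away (log2 fold change 1.19, edgeR adjusted p = 0.0519), and so did leaving out Cre- replicate 1 (1.21, adjusted p = 0.0946). Without Cre+ replicate 2 the Tet2 call was lost (1.05, edgeR adjusted p = 0.0668), as it was without Cre- replicate 2 (1.13, adjusted p = 0.063).

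Tet3, the third dioxygenase, was at 4.92 and 4.55 scaled FPKM in Cre- and at 5.19 and 4.92 in Cre+ libraries at 2.5 days. The lower Cre+ library and the higher Cre- library were at nearly the same level, and the log2 fold change was 0.09 (edgeR adjusted p = 0.664). Tdg, the glycosylase of the active route, was at 3.13 and 3.31 scaled FPKM in Cre- and at 3.14 and 4.48 in Cre+ libraries, with one Cre+ library inside the Cre- range. Its log2 fold change was 0.23 (edgeR adjusted p = 0.349).

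Dnmt3b moved the other way. It was at 0.548 and 0.540 scaled FPKM in the Cre- EDL libraries of 2.5 days and at 0.363 and 0.306 in the Cre+ libraries, with both Cre+ libraries below both Cre- libraries. Its log2 fold change was -0.71 (SE 0.217, edgeR adjusted p = 0.0288), or 1.63-fold lower. This call was less firm than those of the dioxygenases. It rested on 70 to 99 counts in each of the 4 libraries compared. It was lost in 4 of 9 other settings and in 3 of 4 fits that left out a library. The settings were scaling by library size alone (-0.38, edgeR adjusted p = 0.182), no filter on low counts (adjusted p = 0.0541), and these 4 libraries fitted alone with edgeR (adjusted p = 0.133) or DESeq2 (adjusted p = 0.218). The libraries were Cre+ replicate 2 (-0.58, edgeR adjusted p = 0.182), Cre- replicate 1 (-0.69, adjusted p = 0.11) and Cre- replicate 2 (-0.72, adjusted p = 0.0967).

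Dnmt3a, the abundant de novo enzyme, was at 11.96 and 12.7 scaled FPKM in Cre- and at 11.3 and 11.6 in Cre+ EDL libraries. The Cre+ libraries were the lower ones by a small margin; the log2 fold change was -0.11 (edgeR adjusted p = 0.599) and turned to 0.22 under scaling by library size alone. Dnmt1, which copies methylation after replication, was at 2.86 and 2.87 scaled FPKM in Cre- and at 3.36 and 3.05 in Cre+ libraries, with no overlap and a log2 fold change of 0.16 (edgeR adjusted p = 0.598). Uhrf1, which brings Dnmt1 to hemimethylated DNA, was at 0.181 and 0.202 in Cre- and at 0.325 and 0.185 in Cre+ libraries. These groups overlapped, and the log2 fold change of 0.41 (edgeR adjusted p = 0.55) came from 1 Cre+ library. Over the 8 tested members the median log2 fold change was 0.20, against -0.05 over all tested genes. Under scaling by library size alone the median over all genes was 0.28 in this comparison, and the share of higher genes among all called moved from 57.5% to 87.3%.

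**Figure D2:**
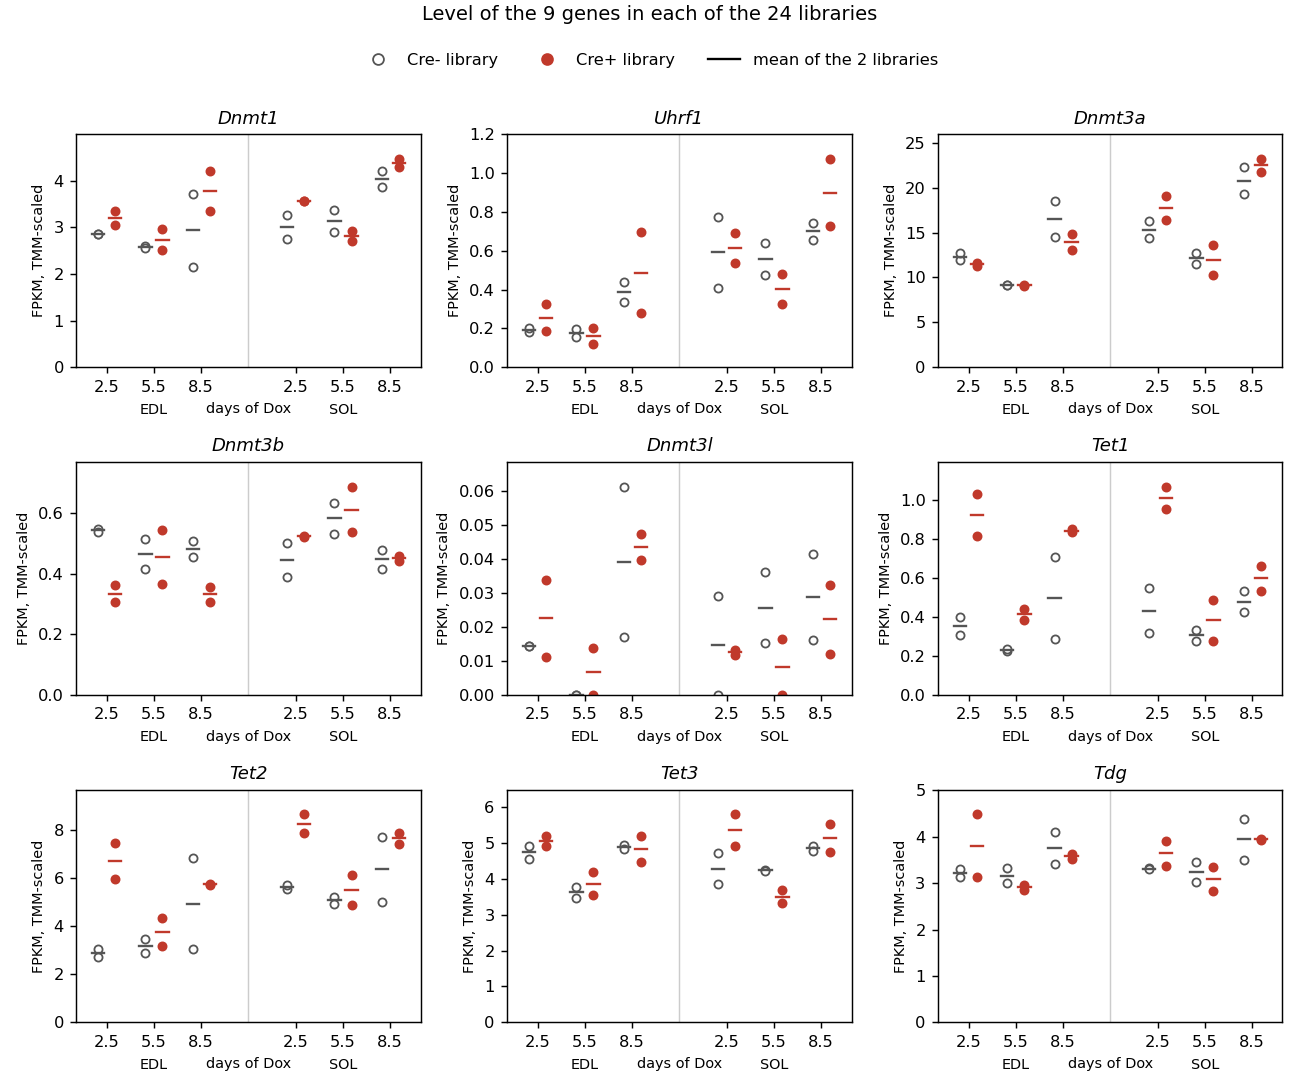
Scaled FPKM of the members in every library, by muscle, genotype and day of Dox, with 1 point for each library (open Cre-, filled Cre+) and a line for the mean of 2. Tet1 and Tet2 lie higher, and Dnmt3b lower, in the Cre+ than in the Cre- libraries of EDL at 2.5 days.

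In EDL at 8.5 days no member was called by edgeR, although 14.1% of all tested genes were. That share rested in part on single libraries: 2172 genes were called with all libraries, 738 without Cre+ replicate 1 and 1251 without Cre- replicate 1. At an unadjusted p under 0.05 there were 2 members (29.8% of all genes), and DESeq2 called 0. Groups without overlap were found for 1 member and 25% of all genes with Cre+ higher, and for 1 member and 28.7% of all genes with Cre+ lower. Tet1 was at 0.707 and 0.286 scaled FPKM in Cre- and at 0.850 and 0.835 in Cre+ libraries. The groups did not overlap, but Cre- replicate 1 lay close to the Cre+ libraries and far from Cre- replicate 2, and the log2 fold change was 0.79 (edgeR adjusted p = 0.152). Tet2 was at 6.81 and 3.05 scaled FPKM in Cre- and at 5.72 and 5.74 in Cre+ libraries, so Cre- replicate 1 was the highest of the 4 and the groups overlapped (log2 fold change 0.24, edgeR adjusted p = 0.636). Summed slow fibre markers were 1524 FPKM in Cre- replicate 1 against 318.4 in Cre- replicate 2, and neutrophil markers 5.847 against 1.304 FPKM. In SOL Cre- of 8.5 days neutrophil markers were 22.97 FPKM in replicate 1 against 1.478 in replicate 2, with Tet2 at 4.87 against 8.09 and Tet1 at 0.414 against 0.556 FPKM. What part these marker differences had in the Tet values was not tested. EDL Cre- replicate 1 also had the lowest total of all 24. Without it Tet1 had a log2 fold change of 1.58 (edgeR adjusted p = 0.0147) and Tet2 of 0.94 (adjusted p = 0.0262), and both were called.

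Dnmt3b was again lower in both Cre+ libraries of EDL at 8.5 days, at 0.307 and 0.358 scaled FPKM against 0.456 and 0.509 in Cre- libraries. The log2 fold change of -0.52 did not pass the test (edgeR adjusted p = 0.132). Dnmt1 was at 2.16 and 3.73 scaled FPKM in Cre- and at 4.203 and 3.36 in Cre+ libraries, overlapping, with a log2 fold change of 0.38 (edgeR adjusted p = 0.231). Without Cre- replicate 2 it was called at 0.82 (edgeR adjusted p = 0.00789). Dnmt3a was at 18.6 and 14.5 scaled FPKM in Cre- and at 14.8 and 13.1 in Cre+ libraries, which overlapped (log2 fold change -0.22, edgeR adjusted p = 0.324). Uhrf1 was at 0.336 and 0.437 against 0.697 and 0.278, a spread that left its log2 fold change of 0.36 without direction once single libraries were left out. Tet3 (0.00) and Tdg (-0.05) had log2 fold changes near 0, of which Tdg turned to 0.13 under library size alone. The median over the 8 members was 0.12, against -0.02 over all tested genes. Of all called genes 54.0% were higher, and 78.3% under library size alone.

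In SOL at 2.5 days, where 0.384% of tested genes were called, no member passed the edgeR test. The count at an unadjusted p under 0.05 was 2 (13.4% of all genes), and DESeq2 called 1 in the same libraries and 2 when SOL at 2.5 days was fitted alone. Tet1 came closest: it was at 0.314 and 0.548 scaled FPKM in Cre- and at 1.07 and 0.954 in Cre+ libraries, with both Cre+ libraries above both Cre- libraries. Its log2 fold change was 1.24 (SE 0.352, edgeR adjusted p = 0.156), with a DESeq2 adjusted p of 0.0236 in the same libraries. Tet2 was at 5.53 and 5.71 scaled FPKM in Cre- and at 8.64 and 7.85 in Cre+ libraries, also without overlap, at a log2 fold change of 0.57 (edgeR adjusted p = 0.418). Tet3 was at 3.85 and 4.70 against 4.897 and 5.79, again without overlap, at 0.34 (edgeR adjusted p = 0.306).

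In the same libraries Dnmt3b was at 0.502 and 0.389 scaled FPKM in Cre- and at 0.525 and 0.522 in Cre+ libraries, so its log2 fold change of 0.25 was opposite in sign to that in EDL. Dnmt3a was at 14.4 and 16.3 against 19.1 and 16.4 (0.23), Dnmt1 at 3.27 and 2.74 against 3.56 and 3.56 (0.26), Tdg at 3.32 and 3.31 against 3.37 and 3.92 (0.15) and Uhrf1 at 0.774 and 0.410 against 0.536 and 0.693 (0.07). Of these 5 genes only Uhrf1 had overlapping groups, and none passed the test. With the Tet genes this made 7 of 8 members with both Cre+ libraries above both Cre- libraries, against 24.5% of all genes, and none with both below, against 24.4%. All 8 log2 fold changes were above 0, with a median of 0.26 against 0.02 over all tested genes.

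In SOL at 8.5 days, 0.631% of tested genes and none of the 8 members were called by edgeR; no member had an unadjusted p under 0.05 (6.6% of all genes did) and DESeq2 called 0. Groups without overlap were found with Cre+ higher for 2 members and 19.2% of all genes, and with Cre+ lower for no member and 19.9%. Log2 fold changes ran from 0.01 for Tdg and 0.02 for Dnmt3b to 0.33 for Tet1 and 0.37 for Uhrf1. Tet1 was at 0.425 and 0.530 scaled FPKM in Cre- and at 0.663 and 0.533 in Cre+ libraries, and the lower Cre+ library exceeded the higher Cre- library by a small margin. Tet2 was at 4.996 and 7.71 against 7.87 and 7.42, overlapping. Dnmt3a, at 22.3 and 19.3 against 23.2 and 21.8, Dnmt1, at 3.87 and 4.21 against 4.46 and 4.30, and Tet3, at 4.91 and 4.77 against 5.52 and 4.74, moved by at most 0.12 on the log2 scale. The median over members was 0.12, against -0.01 over all tested genes.

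**Figure D3:**
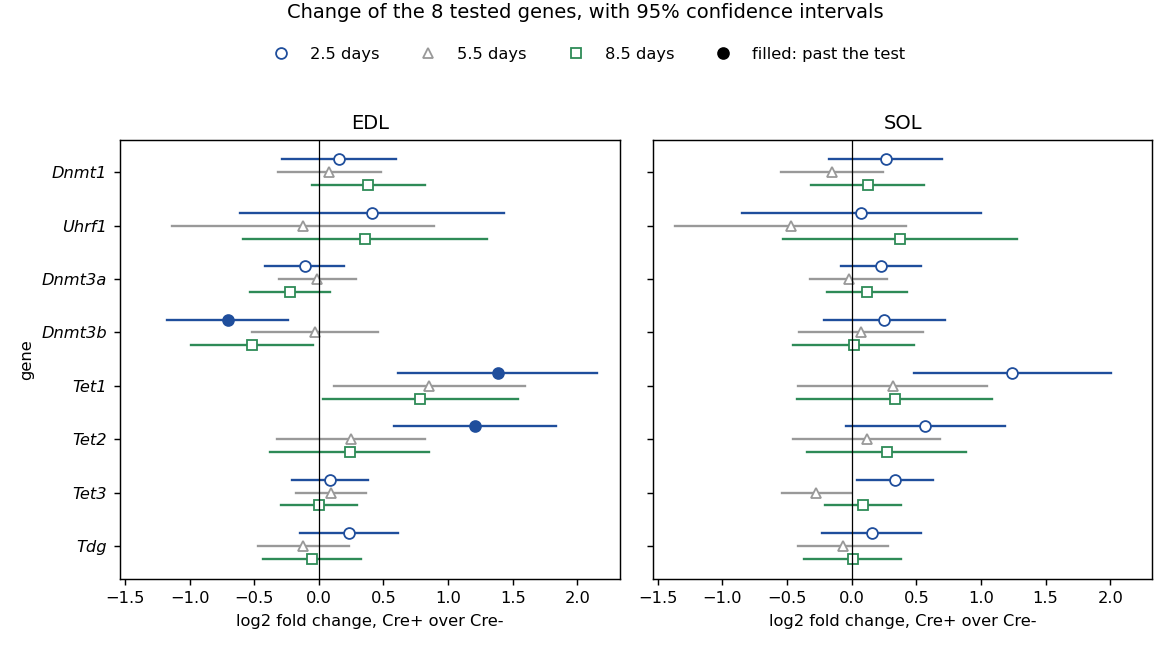
Log2 fold change of Cre+ over Cre- for each tested member, with its 95% confidence interval, in EDL and SOL by day of Dox, with filled symbols for genes past the test. The intervals of Tet1 and Tet2 lie above 0 and that of Dnmt3b below 0 in EDL at 2.5 days, and intervals in SOL at 8.5 days all include 0.

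At 5.5 days 3 of the 4 Cre+ libraries were low in Pou5f1, as given above. In the comparison of genotypes, 0.304% of tested genes were called in EDL and 0% in SOL by edgeR, with 8.44% and 3.86% at an unadjusted p under 0.05. No member was called in either muscle, with 1 member under an unadjusted 0.05 in each and 0 called by DESeq2. In EDL, Tet1 was at 0.223 and 0.233 scaled FPKM in Cre- and at 0.385 and 0.439 in Cre+ libraries, without overlap, at a log2 fold change of 0.85 (SE 0.35, edgeR adjusted p = 0.476). Tet1 in these Cre+ libraries was below all Cre+ EDL libraries of 2.5 and 8.5 days. Tet2 was at 3.46 and 2.87 against 3.16 and 4.35, overlapping, at 0.25. The lowest member log2 fold change in EDL was -0.13. In SOL, Tet1 was at 0.334 and 0.276 scaled FPKM in Cre- and at 0.484 and 0.278 in Cre+ libraries (log2 fold change 0.32), and Tet3 was at 4.24 and 4.22 against 3.68 and 3.32 (-0.27, edgeR adjusted p = 1). Members ranged from -0.47 to 0.32 in SOL.

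Whether the response differed between muscles or days was tested as a difference of fold changes. At 2.5 days the Cre+ change in EDL minus that in SOL was -0.96 on the log2 scale for Dnmt3b (SE 0.306, edgeR adjusted p = 0.0963), 0.64 for Tet2 (adjusted p = 0.389) and 0.14 for Tet1 (adjusted p = 0.896). By edgeR no member was called, with 1 under an unadjusted p of 0.05 (21% of all genes), while 4.25% of all genes were called; DESeq2 fitted to 2.5 days alone called Tet2 (0.68, adjusted p = 0.0487). The calls of Tet1 and Tet2 in EDL and not in SOL are therefore not shown by edgeR to be a difference between the muscles. At 8.5 days 0.592% of genes and no member were called, and no member was under an unadjusted 0.05 (11.2% of all genes were) or called by DESeq2. The change at 8.5 days minus that at 2.5 days in EDL was -0.97 for Tet2 (edgeR adjusted p = 0.466), -0.60 for Tet1 (adjusted p = 0.727) and 0.19 for Dnmt3b. In SOL it was -0.91 for Tet1 (edgeR adjusted p = 1). For both muscles 0% of all genes were called by this difference between days, with 9.56% in EDL and 2.62% in SOL under an unadjusted p of 0.05. No member was called by edgeR or DESeq2 in either, and only Tet2 in EDL was under an unadjusted 0.05.

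EDL and SOL were also compared within a genotype, which sets the fast against the slow muscle of the same day. In Cre- mice at 2.5 days, Uhrf1 was lower in EDL than in SOL at a log2 difference of -1.59 (SE 0.462, edgeR adjusted p = 0.031) and Tet2 at -0.93 (SE 0.288, adjusted p = 0.0403), 2 of 8 members against 16% of all genes (7.86% lower in EDL). With the mouse as a block the Tet2 difference was -0.94 and no longer called (edgeR adjusted p = 0.0654). Leaving out any 1 of the 4 libraries also ended the Tet2 call (edgeR adjusted p from 0.116 to 0.185). The Uhrf1 call was lost without EDL replicate 1 (edgeR adjusted p = 0.162), without EDL replicate 2 (adjusted p = 0.117) and without SOL replicate 1 (-1.07, adjusted p = 0.238). In Cre- mice at 8.5 days none of the 8 was called, against 18.2% of all genes. There 2 members were under an unadjusted p of 0.05 (33.9% of all genes). The log2 differences were -0.84 for Uhrf1 (edgeR adjusted p = 0.2), -0.32 for Dnmt3a (adjusted p = 0.137) and -0.35 for Tet2, and DESeq2 called 0.

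In Cre+ mice at 2.5 days, 3 members were lower in EDL, against 28.4% of all genes called in either direction and 12.8% called lower. These were Uhrf1 at -1.25 (edgeR adjusted p = 0.0443), Dnmt3a at -0.62 (adjusted p = 0.00533) and Dnmt3b at -0.64 (adjusted p = 0.0386), while Tet2 differed by -0.29. The Dnmt3b and Uhrf1 calls were each lost in 3 of 4 fits that left out a library, namely SOL replicate 1, SOL replicate 2 or EDL replicate 2 (edgeR adjusted p from 0.118 to 0.199 and from 0.0765 to 0.27), and in 5 and 2 of 9 other settings, and the Dnmt3a call was lost without SOL replicate 1 (-0.51, adjusted p = 0.0536). In Cre+ mice at 8.5 days Dnmt3a was lower in EDL at -0.66 (SE 0.142, edgeR adjusted p = 0.00601), 1 of 8 members against 18.2% of all genes (9.07% lower), and Uhrf1 (-0.85, adjusted p = 0.177), Dnmt3b (-0.41) and Tet2 (-0.39) were not called. Dnmt3b in Cre- mice was 0.32 higher in EDL at 2.5 days and 0.12 higher at 8.5 days, neither called. The Dnmt3a call at 8.5 days was lost without SOL replicate 1 (-0.60, edgeR adjusted p = 0.054) and without EDL replicate 2 (-0.58, adjusted p = 0.0628). Plain FPKM of Dnmt3a over both genotypes (n = 4 libraries a day) had medians of 12.3, 8.17 and 15.5 in EDL and of 17.3, 11.2 and 21.9 in SOL at 2.5, 5.5 and 8.5 days; this pattern over days was not tested.

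The makeup of the dioxygenase transcripts in EDL at 2.5 days was read as each gene's share of the summed FPKM of Tet1, Tet2 and Tet3, a measure that library scaling leaves as it is. Tet2 made 36.7% and 35.6% of the sum in the Cre- libraries and 48.9% and 56.5% in the Cre+ libraries, and Tet1 made 3.73% and 5.18% against 8.47% and 6.18%. Tet3 made 59.6% and 59.3% in Cre- and 42.6% and 37.3% in Cre+ libraries. Tet3 was thus the leading dioxygenase transcript in both Cre- libraries of that day and Tet2 in both Cre+ libraries. On the other days this split did not hold in every EDL library: Tet2 led in Cre- replicate 1 of 8.5 days, at 54.7%, above both Cre+ libraries of that day (48.7% and 52.0%), and Tet3 led in Cre+ replicate 1 of 5.5 days, at 54.2%. In SOL, Tet2 led in all 12 libraries. The sum of the Tet genes over the sum of Dnmt1, Dnmt3a, Dnmt3b and Dnmt3l was 0.537 and 0.477 in Cre- and 0.810 and 0.878 in Cre+ libraries. Over all days this ratio ran from 0.434 to 0.611 in the 6 Cre- EDL libraries and from 0.607 to 0.878 in the 6 Cre+ EDL libraries, and in SOL from 0.387 to 0.653 and from 0.478 to 0.712. The ranges met at their edges in EDL and overlapped widely in SOL.

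**Figure D4:**
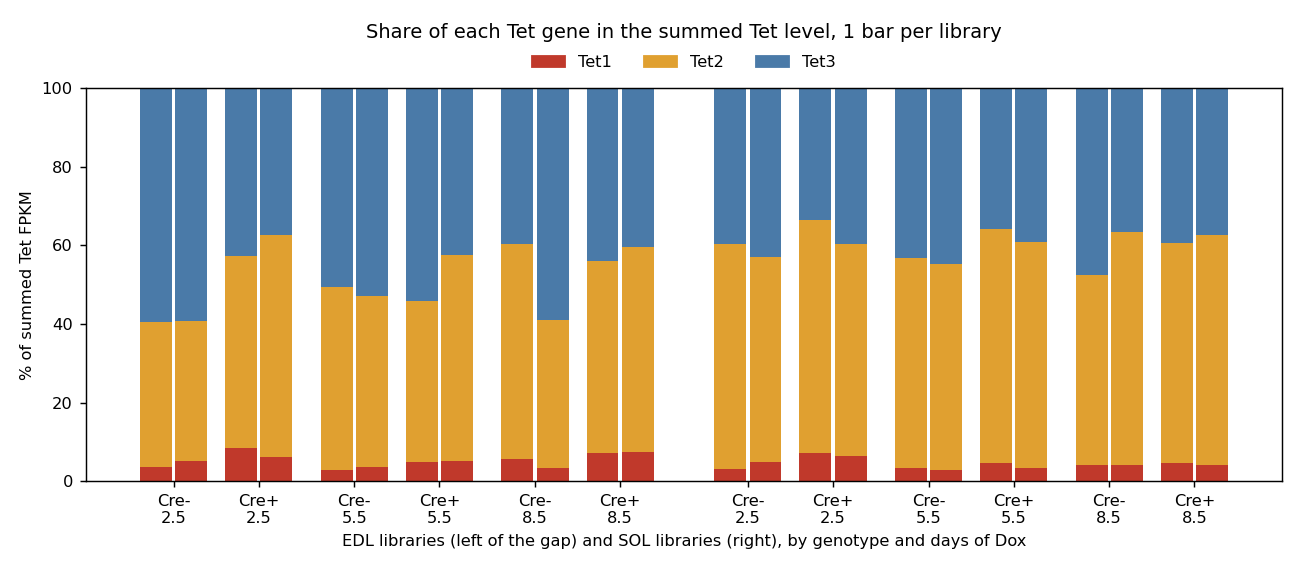
Share (percent) of Tet1, Tet2 and Tet3 in their summed FPKM, with 1 stacked bar for every library by muscle, genotype and day of Dox. In EDL at 2.5 days Tet3 is the largest share in both Cre- libraries and Tet2 in both Cre+ libraries.

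Genes that work with the 9 enzymes were counted by list in EDL at 2.5 days, beside 13.8% of all genes called higher, 10.2% called lower and a median log2 fold change of -0.05. Of 13 tested partners and recruiters of the methyltransferases, 3 rose and none fell, with a median of 0.23. These were Cdca7, an activator of the remodeller Hells (1.28, edgeR adjusted p = 0.00387), its relative Cdca7l (3.77, from low counts) and Zfp57, a zinc finger protein that keeps imprints methylated (1.28, adjusted p = 0.0359). The abundant corepressor Trim28 stood at 0.46, under the fold limit, and Hdac2 at 0.14. Of 9 methyl-CpG readers none was called, with a median of -0.16 and with Mbd2 at 0.16 and Mbd3 at -0.27. Of 12 base excision repair genes that act after Tdg, 1 rose, namely the abasic site endonuclease Apex1 (0.92, edgeR adjusted p = 0.00622), and Polb stood at 0.06.

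Of 7 tested Gadd45 genes and cytidine deaminases, proteins proposed to take part in demethylation, 1 fell: Gadd45g, at -1.73 (SE 0.373, edgeR adjusted p = 0.00442), and Apobec2 stood at -0.69 without passing the test. The list kept for the methionine cycle, which makes the methyl donor S-adenosylmethionine, held 12 genes. In that list the Ahcy-like gene Ahcyl2 rose (0.89, edgeR adjusted p = 0.00155) and the glycine methyltransferase Gnmt (-1.59, adjusted p = 0.0213) fell. Among 10 genes that supply 2-oxoglutarate to the dioxygenases or bind them, 1 rose and 4 fell, with a median of -0.46. Idh2 rose by 1.24 on the log2 scale (edgeR adjusted p = 0.000587), whereas Idh3a (-0.77) and Idh3b (-0.71), subunits of the mitochondrial enzyme of the citric acid cycle, fell. The other two that fell, named after their values were seen, were Idh3g and Cxxc5. Of 21 tested imprinted genes, whose expression depends on allelic methylation, 2 rose and 6 fell, with a median of -0.23. Meg3 (-1.27, edgeR adjusted p = 0.00147), Airn (-1.48, adjusted p = 0.0127) and H19 (-1.19, adjusted p = 0.00504) fell, and Peg10 rose at 5.08, beside Mest (named after its value was seen), with an SD across the 2 Cre+ libraries (12.8 FPKM) larger than their mean (11.03 FPKM). Of 13 germline genes silenced by methylation, only Dazl had enough counts to be tested, at -0.97 and not called.

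At 8.5 days in EDL, where 7.63% of genes were called higher and 6.5% lower, the same lists held fewer calls. Cdca7 (1.31, edgeR adjusted p = 0.00611) was called higher, and Gadd45g (-2.17, adjusted p = 0.00257), Meg3 (-1.36), Airn (-1.45), Idh3a (-0.67) and Idh3b (-0.80) lower. In SOL no gene of these lists was called at 2.5 days, and at 8.5 days 2 were, both lower, namely Bhmt and Mat1a of the methionine cycle, named after their values were seen.

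**Figure D5:**
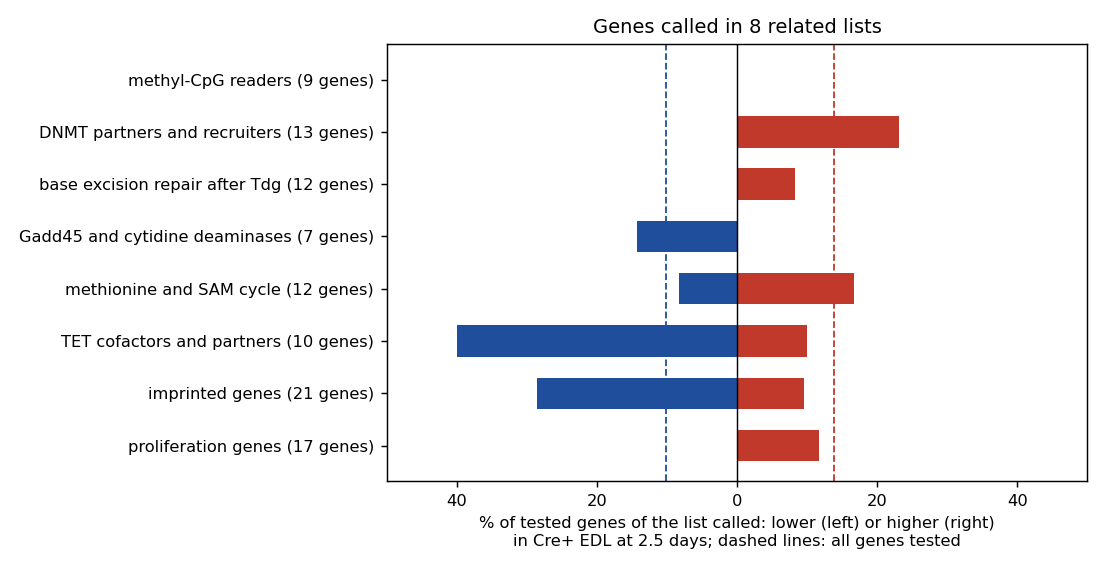
Percent of tested genes called lower (left) and higher (right) in 8 lists, for Cre+ over Cre- in EDL at 2.5 days, with the number of tested genes by each list and dashed lines at the percent over all tested genes (10.2% lower and 13.8% higher). The longest bars are the lower calls among TET cofactors and partners (4 of 10 genes) and imprinted genes (6 of 21 genes).

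Markers of other cell types, of fibre type and of proliferation were summed in scaled FPKM in the same contrast, and the part of those that differed in the results for Tet1, Tet2 and Dnmt3b was not tested. The counts of markers called lower below stand beside 10.2% of all genes called lower in this contrast. Of 7 endothelial markers 5 were called lower in EDL Cre+ at 2.5 days. Their summed level was 80.9 to 87.8 scaled FPKM in Cre+ and 116.8 to 141.0 in Cre- libraries, and no marker was at 0 in either group. Of 9 fast fibre markers 5 were lower, with sums of 56100 to 73740 against 106900 to 122100 scaled FPKM. Among 7 satellite cell markers 1 (Cxcr4) was lower, with sums of 16.5 to 25.6 against 24.5 to 24.9 scaled FPKM. Macrophage markers (38.7 to 63.9 against 45.2 to 67.2 scaled FPKM) and fibroblast markers (1073 to 2096 against 1717 to 1872 scaled FPKM) overlapped, with no gene of 7 called in either. Of 17 proliferation genes 2 rose, against 13.8% of all genes, namely the cyclin Ccne1 (2.02, edgeR adjusted p = 0.00537) and the ribonucleotide reductase subunit Rrm2 (1.302, adjusted p = 0.0207), while the replicative helicase subunits Mcm2 (-0.22) and Mcm7 (0.26) did not pass the test. The summed level of the proliferation genes was 19 to 19.3 scaled FPKM in Cre+ against 14.5 to 15.8 in Cre- libraries, a narrower gap than in plain FPKM (21.7 to 23.2 against 13.8 to 14.5).

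Within EDL Cre+ muscle the levels of the members were set beside Pou5f1 as a description. The library with the least Pou5f1 (1.02 FPKM, replicate 1 of 5.5 days) had the lowest plain FPKM of Tet1 (0.364) and Tet2 (2.99) of the 6 and the highest of Dnmt3b (0.514). The library with the next lowest Pou5f1 (17.5 FPKM, replicate 1 of 2.5 days) had the highest Tet1 (1.18 FPKM), so the 6 libraries did not follow one order. Tet1 was also low (0.412 FPKM) in Cre+ replicate 2 of 5.5 days, where Pou5f1 was 27.7 and Dnmt3b only 0.345 FPKM. In the Cre- EDL libraries of 5.5 days Tet1 was 0.191 and 0.197 FPKM. The part of the day in these levels was not tested.

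Across the 12 group means of log2 CPM, the profile most like that of Tet1 was Morc4 (Pearson r = 0.948), then Aacs (0.939) and Clic1 (0.936). For Tet2 these were Cstb (0.945), Asap2 (0.94) and Ntn4 (0.939), and for Dnmt3b 5430405H02Rik (0.928), Bcl2l12 (0.91) and Dupd1 (0.902). For Dnmt3a they were Inip (0.982), Ttyh3 (0.968) and Nfya (0.966), for Dnmt1 Wasf2 (0.956), Sgpl1 (0.948) and Esyt1 (0.948), and for Uhrf1 Arhgef12 (0.973), Scube2 (0.96) and Wdr1 (0.953). For Tet3 they were Cbl (0.924), Heg1 (0.912) and Prr14l (0.911). Beyond Gm9855, which shares its reads, Tdg was most like Abhd2 (0.933) and Tubb2b (0.928). Between members, r ran from -0.559 for Dnmt3b with Tet1 to 0.871 for Uhrf1 with Dnmt3a. These are descriptions over 12 means that share muscle, day and library depth, the highest of many candidates, and carry no test.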

How the data were processed

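RNA from whole EDL and SOL muscles was sequenced in 24 libraries. Per the labels and the study's methods, the authors aligned reads to mm10 with STAR 2.5.3a and counted uniquely aligned reads on RefSeq exons per gene with HOMER. FastQC 0.11.2 is also listed. The deposited values are raw counts, and the exon length in the same table gave FPKM. The library kit is named as TruSeq while the strand used in counting is not given in the sources used here.

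Genes were filtered with edgeR's filterByExpr (minimum count 10) and tested with edgeR 4.0.16 (quasi-likelihood, TMM, R 4.3.3) over the 16 libraries of 2.5 and 8.5 days (15372 genes), with day 5.5 from a fit of all 24 (15478 genes). Benjamini-Hochberg adjustment covered all tested genes, and calls needed an adjusted p under 0.05 and a log2 fold change beyond 0.5. The scripts were tested on simulated counts. Total counts of 36088781 to 54679082 set the precision, and replicate pairs differed by more than sampling noise. Alternatives were DESeq2 1.42.0, other scalings, filters, fitted libraries and fold limits, replicate and mouse blocks, and leaving out each library. For the mouse block, EDL and SOL libraries of the same number were taken as shared mice. This was done because deviations from the group means correlated in all 6 pairs (r 0.173 to 0.445). The library titles give a replicate number and no mouse, so this remains an assumption. The main tests held no mouse term and treated the 2 muscles as independent. The members and lists were chosen with earlier results of these data known. From each list the text names up to 3 called genes of largest change in EDL at 2.5 days and the 2 most abundant. A result that this rule would name is not reported here. Tables were made with Python 3.11.15, pandas 2.3.3 and numpy 2.4.6.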

Additional observations from a re-analysis of the deposited data

Results flagged for a closer look

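In each of 18 groups of 6 libraries (1 of the 9 genes in the Cre- libraries of one muscle, all days together), the highest and lowest values were compared with the rest. The limit used marks about 1 group in 20 by chance if all 6 values come from one normal distribution. That rate need not hold here, because each group pooled days whose levels can differ and Dnmt3l had few counts. Every value flagged below came from 8.5 days. Tet1 in Cre- EDL had its highest value, 0.689 FPKM, in replicate 1 of 8.5 days, far above the other 5 libraries. Tet2 in Cre- EDL was highest in the same library, at 6.64 FPKM. Tet2 in Cre- SOL was highest in replicate 2 of 8.5 days, at 8.09 FPKM. Dnmt3l in Cre- EDL was highest in replicate 2 of 8.5 days, at 0.0581 FPKM, which is 4 counts.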

How the results depend on the processing

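In EDL at 2.5 days Tet1 and Tet2 were called under every setting that kept all libraries, and the block by replicate number within day, tried although Cre+ and Cre- libraries of one number did not deviate together (r -0.169 to 0.0578), left the 3 members called. A block changed no other call of a member than that of Tet2 for EDL over SOL in Cre- mice at 2.5 days. Leaving out single libraries gave 1 to 2 called members in EDL at 2.5 days, 0 to 2 in EDL at 8.5 days, and for EDL over SOL 0 to 1 in Cre- mice at 2.5 days, 0 to 1 at 8.5 days, 0 to 3 in Cre+ mice at 2.5 days and 0 to 2 at 8.5 days. In SOL at 2.5 days DESeq2 called 1 member in the same libraries and 2 alone, and DESeq2 alone called 1 for the difference between muscles at 2.5 days. For EDL over SOL at 2.5 days, Cre- mice gave 1 called member with the mouse as a block and 1 at a fold limit of 1, and Cre+ mice gave 1 each under library size alone, edgeR on these libraries alone and a fold limit of 1; at 8.5 days, Cre+ mice gave 2 with DESeq2 alone and 0 at that fold limit. Signs turned for Dnmt3a in EDL at 2.5 days (0.2215) and Tdg in EDL at 8.5 days (0.1309) under library size alone, for Tdg in SOL at 8.5 days with all 24 libraries (-0 as rounded), and for Tet3 in EDL at 8.5 days with DESeq2 size factors (-0.0012), all 24 libraries (-0.018), the replicate block (-0.0009) and DESeq2 (-0.0011). Without single libraries, log2 fold changes of EDL at 2.5 days ran from -0.0604 to 0.7671 for Uhrf1 and -0.035 to 0.4621 for Tdg, and of SOL at 2.5 days from -0.3106 to 0.596 for Uhrf1. At 8.5 days in EDL they ran from -0.4528 to 0.8632 for Uhrf1, -0.2322 to 0.9365 for Tet2, -0.1029 to 0.1009 for Tet3 and -0.1728 to 0.0814 for Tdg, and in SOL from -0.0815 to 0.1216 for Dnmt3b, -0.0055 to 0.6225 for Tet2, -0.0306 to 0.203 for Tet3 and -0.1443 to 0.1772 for Tdg. At 5.5 days they ran from -0.0022 to 0.4613 for Tet2 in EDL and -0.1353 to 0.6622 for Tet1 in SOL. The difference between muscles at 2.5 days ran from -0.3236 to 0.4892 for Tet1, that between days in EDL from -1.1154 to 0.2018 for Tet1, and EDL over SOL in Cre- mice at 8.5 days from -1.0473 to 0.1213 for Tet2. Over all genes, SOL held 59 calls at 2.5 days and 97 at 8.5 days by edgeR, and 369 and 169 by DESeq2 on the same libraries. The causes were not tested. Of the other gene values, 717 kept their direction and side of the threshold. With 2 libraries a group and few counts of Dnmt3b, Uhrf1 and Dnmt3l, small changes in these genes were not detectable.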
